A study of Mus musculus with 20 samples.

Results

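Bulk RNA from the hippocampus of adult male mice was compared between libraries with more and libraries with less RNA of 2 genes of neocortical excitatory neurons, Tbr1 and Rorb. Tbr1 encodes a T-box transcription factor of deep-layer cortical projection neurons, and Rorb an orphan nuclear receptor typical of layer 4. Each library was given a score, the mean of its log2(CPM + 1) values for the 2 genes, where CPM is the count per 1000000 counts of that library. Within each treatment group of 5 libraries, the 2 with the highest score were called rich and the 2 with the lowest were called poor. This placed 16 of the 20 libraries, 8 rich and 8 poor, and left 4 middle libraries in neither class. The classes were thus chosen by the measured levels of these 2 genes and are not treatments of the study, so the values of both genes are given as a description without a test.

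The study sequenced 1 fresh frozen hippocampus per mouse from wild-type males aged 10 to 12 weeks in 4 groups of 5. Control mice received isotype antibody. The ICI mice received immune checkpoint inhibitors by intraperitoneal injection, anti-CTLA-4 at 1 mg per dose 3 times weekly and anti-PD-1 at 200 µg per dose 2 times weekly. Melanoma mice carried D4M-3A.UV2 tumours, a mouse melanoma line of which 500000 cells were placed in the skin on each side and left for 1 week, and then had isotype antibody. Melanoma plus ICI mice carried the same tumours and received the 2 inhibitors, for 3 weeks as the labels state for that group. All mice were killed 72 hours after the last injection, and replicate numbers below name single mice.

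The hippocampus lies directly under the neocortex and next to the subiculum, the thalamus and the choroid plexus of the ventricle. Its own principal cells are the granule cells of the dentate gyrus, which depend on the transcription factor Prox1, and the pyramidal cells of fields CA1 to CA3. Neocortical projection neurons are set apart by transcription factors such as Cux2 and Tbr1, and by layer genes such as Cplx3 and Ccn2 of layer 6b. In bulk RNA, fewer cells of a type and less RNA per cell cannot be told apart.

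The libraries held 21990624 to 25735149 counts and 24674 to 26194 detected genes, with 3.08 to 5.10% of counts from mitochondrial genes. Control replicate 4 and melanoma plus ICI replicate 1 stood apart from the other 18 in the relation of level to gene length. Their log2 deviation from the other libraries changed by -0.109 and -0.0689 per doubling of length, against -0.0117 to 0.0414 elsewhere, so both had more counts from short genes. Both were rich libraries with the highest score of their group, and results are therefore also given without them.

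The score ranged from 4.56 in control replicate 2 to 5.84 in melanoma plus ICI replicate 1. In control mice it was 5.67 and 5.52 in the rich libraries, replicates 4 and 1, and 4.86 and 4.56 in the poor ones, replicates 3 and 2. In melanoma plus ICI mice it was 5.84 and 5.72 in replicates 1 and 3, against 4.88 and 4.81 in replicates 2 and 4. The classes lay closer together in the other groups, with 5.30 and 5.03 against 4.88 and 4.84 in ICI mice, and 5.21 and 5.196 against 5.00 and 4.68 in melanoma mice. The mean of the rich libraries therefore exceeded that of the poor ones by 0.937 in melanoma plus ICI mice and 0.887 in controls, but by 0.366 with melanoma and 0.303 with ICI.

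**Figure D1:**
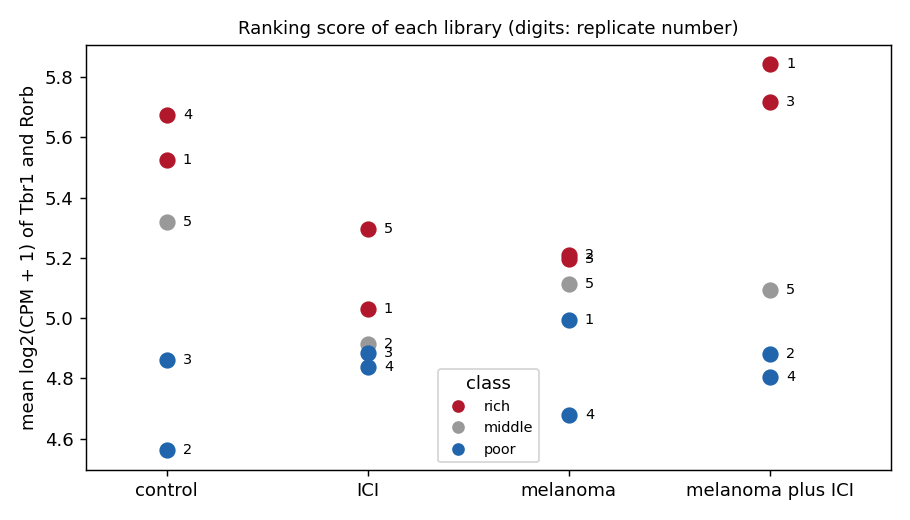
The score of each of the 20 libraries, as the mean log2(CPM + 1) of Tbr1 and Rorb on the vertical axis, by treatment group; colours mark the class and digits the replicate. The classes lie far apart in control and melanoma plus ICI mice and close together in ICI and melanoma mice.

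At the edges of the classes the gaps were small in some groups. The middle library scored 0.031 above the higher poor library in ICI mice and 0.082 below the lower rich library in melanoma mice, whereas in melanoma plus ICI mice the middle library scored 0.622 below the lower rich one. The 2 genes did not order the libraries alike: ranking by Tbr1 alone gave the same class to 12 of 20 libraries and moved 2 from one extreme to the other, and ranking by Rorb alone gave the same class to 15 and moved 1. Melanoma replicate 1, a poor library, had 73.1 CPM of Tbr1, more than the 65.0 and 57.3 CPM of the rich libraries of its group.

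Among 18425 other genes tested, 309 (1.68%) were higher and 263 (1.43%) lower in the rich libraries at an adjusted p under 0.05, so 572 genes (3.1%) differed. At an unadjusted p under 0.05 there were 3615 genes (19.6%), 10% of all genes higher and 9.58% lower. The test was edgeR's quasi-likelihood test with treatment group as a covariate and Benjamini-Hochberg adjustment over all genes. Genes of neocortical neurons were among the higher ones, and genes of dentate granule cells among the lower ones. The 8 rich and 8 poor libraries did not overlap for 42 genes (0.228%), of which 27 (0.147%) were higher and 15 (0.0814%) lower in the rich ones. Both rich libraries lay above both poor ones of their group in 4 of 4 groups for 158 genes (0.858%).

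The number of genes called depended on which libraries were compared. Leaving out 1 library at a time gave 130 to 803 genes, and 10 of 16 omissions moved the count by more than 1.5 times: 205, 193, 286 and 367 genes without control replicates 1, 2, 3 and 4, 265, 318 and 130 without ICI replicates 3, 4 and 5, 263 without melanoma replicate 4, and 267 and 170 without melanoma plus ICI replicates 2 and 4. No gene passed without the control group, without the ICI group or without the melanoma plus ICI group, nor without the 3 libraries of highest score, although 2080, 3282, 3004 and 3666 genes had an unadjusted p under 0.05 there; the other tools were run only on the full set, where DESeq2 called 1391 genes and limma voom 1565. Without the 2 libraries rich in short transcripts 569 genes passed, of which 337 were among the 572.

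**Figure D2:**
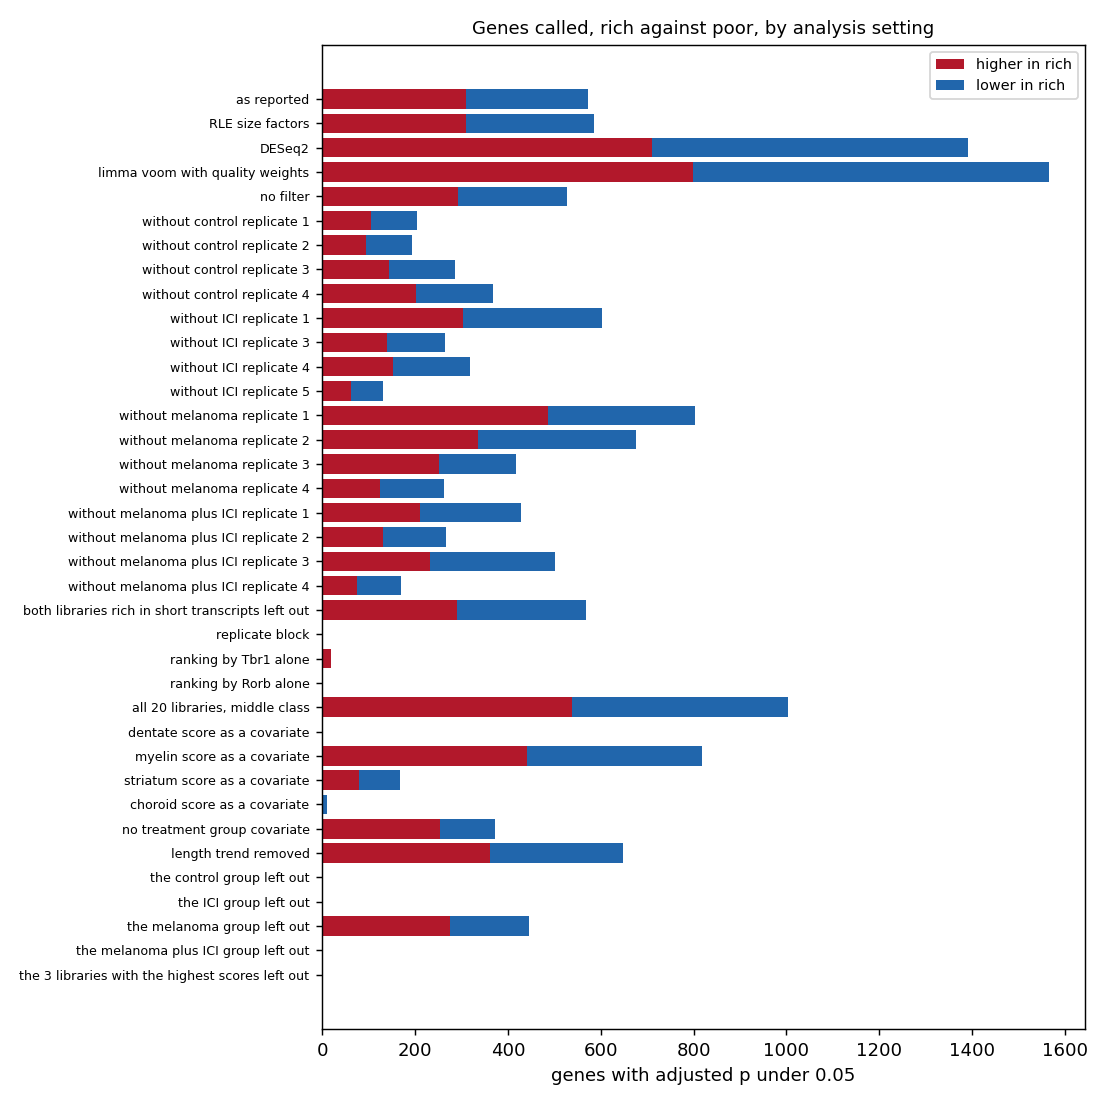
Number of genes with an adjusted p under 0.05 (horizontal axis) higher (red) or lower (blue) in rich libraries, for the comparison as reported and for each alternative; the fit with the score as a continuous covariate is not drawn. The count runs from 0 to 1565 across the bars shown.

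The 4 lists of neocortical excitatory neuron genes held 44 tested members besides the ranking genes. Of these, 8 were higher and 1 was lower in rich libraries, against 1.68% and 1.43% of all genes, and 30 of 44 had a positive log2 difference, against 9592 of all 18425, with a median of 0.285 against 0.01 over all genes. All 4 lists had members that did not pass. The general list gave 2 of 8 higher, and layers 2 to 4 gave 2 higher and 1 lower of 13. Layer 5 gave 2 of 10 higher, and layers 6 and 6b gave 2 of 13 higher. At an unadjusted p under 0.05, 16 of the 44 were higher and 7 lower, against 10% and 9.58% of all genes. The general list was positive in 4 of 8 cases, and layer 5 had 4 genes higher and 4 lower at that level. In list order, DESeq2 called 2, 3, 3 and 3 higher and 1, 1, 2 and 1 lower. Limma voom called 2, 3, 3 and 3 higher and 2, 1, 3 and 1 lower. Of all 18425 genes, DESeq2 called 710 higher and 681 lower, and limma voom 798 and 767. The mean log2 CPM over the 44 genes was 4.88 to 5.15 in rich and 4.41 to 4.99 in poor libraries, so the classes overlapped. For the general list, the rich mean lay below the poor mean in ICI mice (-0.177) and melanoma mice (-0.063). It lay above the poor mean in melanoma plus ICI mice (0.594) and controls (0.285). The other lists were positive in every group. Layers 6 and 6b differed by 0.974 in controls and 0.736 with ICI, but by 0.181 and 0.141 in tumour-bearing mice with and without ICI. Layers 2 to 4 ranged from 0.139 to 0.358 and layer 5 from 0.078 to 0.313.

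Mef2c, a transcription factor of cortical excitatory neurons, had 178, 263 and 432 CPM (lowest, median, highest) in rich against 73.0, 122 and 186 CPM in poor libraries, with a log2 difference of 1.03 (SE 0.17, edgeR adjusted p = 0.0156). The classes overlapped where 2 poor libraries, melanoma replicate 1 and melanoma plus ICI replicate 2, exceeded the lowest rich one, melanoma replicate 2, and the difference was 1.02 without the 2 libraries rich in short transcripts (edgeR adjusted p = 0.0326).

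Among the called genes of the 4 lists, the layer 6b genes Cplx3 and Ccn2 had the greatest differences. No other member of the layer 6 and 6b list passed. Ccn2, a secreted matrix protein that marks layer 6b neurons (GRCm38 coordinates chr10:24595442-24598683), had 17.7, 24.5 and 33.6 CPM in rich and 2.38, 9.47 and 17.2 CPM in poor libraries. Every rich library exceeded every poor one, and the log2 difference was 1.59 (SE 0.34, edgeR adjusted p = 0.0270). Within groups it was 2.14 in control and 3.07 in ICI mice, but 0.778 in melanoma and 0.770 in melanoma plus ICI mice. Cplx3, a complexin of the vesicle release machinery (chr9:57599992-57606281), had 11.3, 15.1 and 24.8 CPM in rich and 1.32, 4.75 and 14.8 CPM in poor libraries, with a log2 difference of 1.64 (SE 0.39, edgeR adjusted p = 0.0372). Without the 2 libraries rich in short transcripts, the log2 difference was 1.72 for Ccn2 (edgeR adjusted p = 0.0468) and 1.76 for Cplx3, which then no longer passed (edgeR adjusted p = 0.0590) although the difference was no smaller.

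Among the genes of the other layers, Cux2, a homeodomain factor of the upper layers, differed by 0.90 (SE 0.21, edgeR adjusted p = 0.0365), from a median of 38.1 CPM in poor to 62.4 CPM in rich libraries. The layer 2 to 4 list also held Plcxd2, 0.88 higher on the log2 scale, and Mdga1, a membrane-anchored adhesion protein that binds neuroligins, with a log2 difference of -1.003 (SE 0.21, edgeR adjusted p = 0.0236). Mdga1 had medians of 57.0 CPM in rich and 114 CPM in poor libraries, the opposite order to the rest of its list that passed. In layer 5, Deptor, an inhibitor of mTOR, was higher by 0.89 and Tshz2, a zinc finger factor, by 1.20 on the log2 scale. Fezf2, a layer 5 specification factor, had medians of 50.7 and 37.5 CPM and did not pass (edgeR adjusted p = 0.222). Of the neocortical genes named, Mef2c lost its call in 9 of 37 alternatives, Deptor in 10, Mdga1 in 16, Plcxd2 in 18, Ccn2 in 19, Cux2 in 22, Cplx3 in 23 and Tshz2 in 24.

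**Figure D3:**
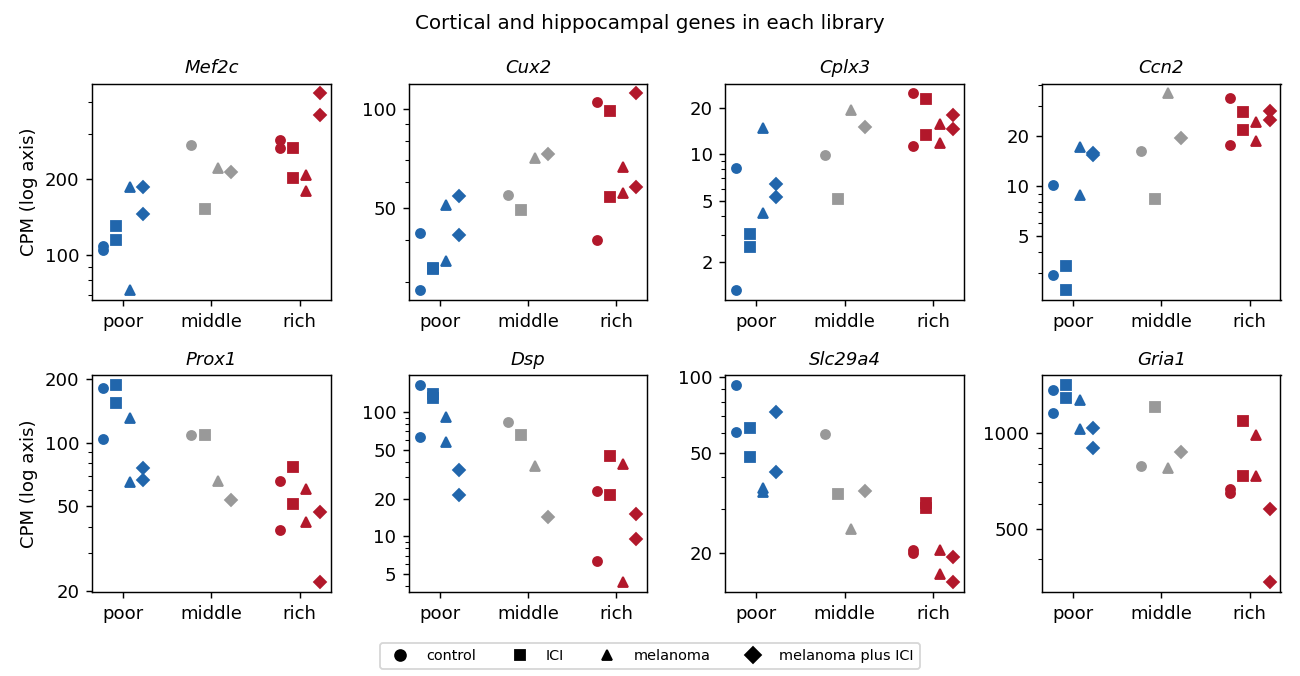
CPM on a log axis of 8 genes in each library, by class on the horizontal axis; marker shape gives the treatment group. Ccn2 is higher and Slc29a4 lower in every rich library than in any poor one, while Cux2, Prox1, Dsp and Gria1 overlap between classes.

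Of the 15 genes with the greatest positive differences among those that passed with a mean of at least 1 CPM, all except Cplx3 were in none of the neocortical lists. Dkkl1, a secreted dickkopf-like protein, had medians of 6.57 CPM in rich and 1.21 CPM in poor libraries, a log2 difference of 2.48 (SE 0.49, edgeR adjusted p = 0.0201). Adam33, a membrane metalloprotease, had medians of 7.13 and 1.13 CPM and differed by 2.32 (SE 0.40). Ovol2, a zinc finger transcription factor, had medians of 3.96 and 0.835 CPM and differed by 2.21 (SE 0.35), each with an edgeR adjusted p of 0.0156. Others were Gm28928, Gm40518, Capn11, Rasgef1c, Col24a1, Sowahb, Igfn1, Gm11549, Tcap and Gm15721, with log2 differences from 1.60 to 2.01. Col24a1 encodes a fibrillar collagen and Tcap the titin-cap protein of muscle. Adam33, Ovol2, Sowahb and Gm15721 lost their call in 9 of 37 alternatives, Dkkl1 in 12, Tcap in 13 and Capn11 in 18. Rasgef1c and Gm11549 lost theirs in 19, Gm28928 in 22, Igfn1 in 24, Gm40518 in 25 and Col24a1 in 27. Melanoma plus ICI replicate 3 was the highest of all libraries for 11 of these 15 genes.

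Of 17 tested inhibitory interneuron genes, 13 had a positive log2 difference, with a median of 0.281, and 6 were higher and 2 lower at an unadjusted p under 0.05, against 9592 of all 18425 genes positive, 10% higher and 9.58% lower. Vip, a neuropeptide of a class of cortical interneurons, had 12.9, 18.8 and 30.7 CPM in rich and 5.66, 8.85 and 13.7 CPM in poor libraries. Its log2 difference was 1.10 (SE 0.19, edgeR adjusted p = 0.0156), while Adarb2, a gene of related interneurons, was lower with a log2 difference of -0.41 (SE 0.10, edgeR adjusted p = 0.0433) and lost its call in 28 of 37 alternatives. These were the 2 of 17 interneuron genes that passed edgeR's test, against 1.68% of all genes higher and 1.43% lower. DESeq2 called 4 higher and 1 lower, against 710 and 681 of all 18425 genes. Limma voom called 3 higher and 1 lower, against 798 and 767. Gad1, the enzyme that makes GABA, had medians of 343 CPM in rich and 331 CPM in poor libraries.

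Genes of hippocampal principal cells that passed edgeR's test were lower in rich libraries. Of 24 tested genes of the dentate gyrus, CA1, and CA2 and CA3, 4 were lower and 0 higher, all 4 of them among the 10 dentate genes, and 3 of 24 had a positive log2 difference, against 1.43% of all genes lower, 1.68% higher and 9592 of 18425 positive. The dentate list had a median log2 difference of -0.98 and its mean log2 CPM was 3.25, 4.38 and 4.99 in rich against 4.70, 5.38 and 6.17 in poor libraries. The rich mean lay below the poor mean in every group, with differences of -1.35 for ICI, -1.30 for control, -1.01 for melanoma and -0.83 for melanoma plus ICI mice.

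Prox1, the homeodomain factor of granule cells (chr1:190118035-190170714), had 21.9, 49.2 and 76.8 CPM in rich and 65.1, 118 and 187 CPM in poor libraries. Both rich libraries lay below both poor ones in 4 of 4 groups, which held for 215 of all genes (1.17%). Its log2 difference was -1.21 (SE 0.20, edgeR adjusted p = 0.0156). Dsp, the desmosome protein desmoplakin, which marks granule cells (chr13:38151328-38198577), had 4.29, 18.4 and 44.4 CPM in rich and 21.3, 77.5 and 164 CPM in poor libraries, a log2 difference of -1.99 (SE 0.42, edgeR adjusted p = 0.0244). Glis3, a zinc finger factor, differed by -1.01 and Trpc6, a cation channel, by -0.69. Prox1 and Glis3 lost their call in 9 of 37 alternatives, Dsp in 13, and Trpc6 in 27 besides 1 in which its sign changed. Without the 2 libraries rich in short transcripts 7 of the 10 dentate genes passed, all lower, against 279 lower of all 18425 genes. Prox1 then differed by -1.41 (edgeR adjusted p = 0.0285).

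None of the 7 CA1 genes or the 7 CA2 and CA3 genes passed edgeR's test, although 5 of the latter had an unadjusted p under 0.05, against 19.6% of all genes and all 7 had a negative log2 difference. DESeq2 called 1 CA1 gene higher and 1 lower and 4 CA2 and CA3 genes lower. It called 710 of all 18425 genes higher and 681 lower. Limma voom called 1 CA1 gene higher and 3 lower and 6 CA2 and CA3 genes lower. It called 798 of all genes higher and 767 lower. The mean log2 CPM of the CA2 and CA3 genes was 3.18, 3.82 and 4.35 in rich against 4.05, 4.69 and 5.03 in poor libraries. With the dentate score added to the fit as a covariate, no gene of the whole table passed for the class, and 4531 had an unadjusted p under 0.05. In that fit the median log2 difference was 0.151 for CA1 genes and -0.262 for CA2 and CA3 genes, and 8 of 17 interneuron genes had a positive difference. The general neocortical list was positive in 7 of 8 cases (median 0.636) and layers 2 to 4 in 7 of 13 (0.033). Layer 5 was positive in 6 of 10 (0.022) and layers 6 and 6b in 8 of 13 (0.202). Immediate early genes, described below, were positive in 12 of 12 (1.086) and choroid plexus genes in 0 of 9 (-4.635). Genes of neighbouring tissue were compared in the same way. The mean log2 CPM of 9 choroid plexus genes was 0.02, 1.17 and 5.81 in rich and 2.88, 5.12 and 6.75 in poor libraries. All 9 had a negative log2 difference and none passed edgeR's test, with 6 at an unadjusted p under 0.05 (19.6% of all genes). That count was 0 without the 2 libraries rich in short transcripts and 0 without the 3 libraries of highest score. It was 4 with the score as a continuous covariate. It was 9 without melanoma plus ICI replicate 3, with the replicate number as a block and with the dentate covariate. DESeq2 called 5 (1391 of all 18425 genes) and limma voom 2 (1565). The classes overlapped, since ICI replicate 5 and melanoma plus ICI replicate 3, both rich, had scores of 5.07 and 5.81, and Ttr, the transthyretin of choroid plexus, had medians of 31.7 and 1980 CPM. With the choroid plexus score as a covariate 10 genes passed, all lower in rich libraries.

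Striatal projection neuron genes had positive differences in 13 of 13 cases, with a median of 0.80. None passed edgeR's test, and DESeq2 called 1 of these genes and 1391 of all 18425. The striatal genes were positive in 4 of 13 with the dentate score as a covariate (median -0.43). Their mean log2 CPM was high in 3 of the 16 libraries, at 6.65 and 5.62 in rich melanoma replicate 3 and melanoma plus ICI replicate 3 and at 5.37 in poor melanoma replicate 1, and 3.23 to 3.73 in the others. With this score as a covariate 168 genes passed. Myelin genes overlapped between the classes, with mean log2 CPM of 6.07 to 7.55 in rich and 6.12 to 7.34 in poor libraries, and 0 of 14 passed with edgeR, DESeq2 or limma voom, each with 0 at an unadjusted p under 0.05. What part the dentate, choroid plexus and striatal RNA had in the differences of other genes was not tested.

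**Figure D4:**
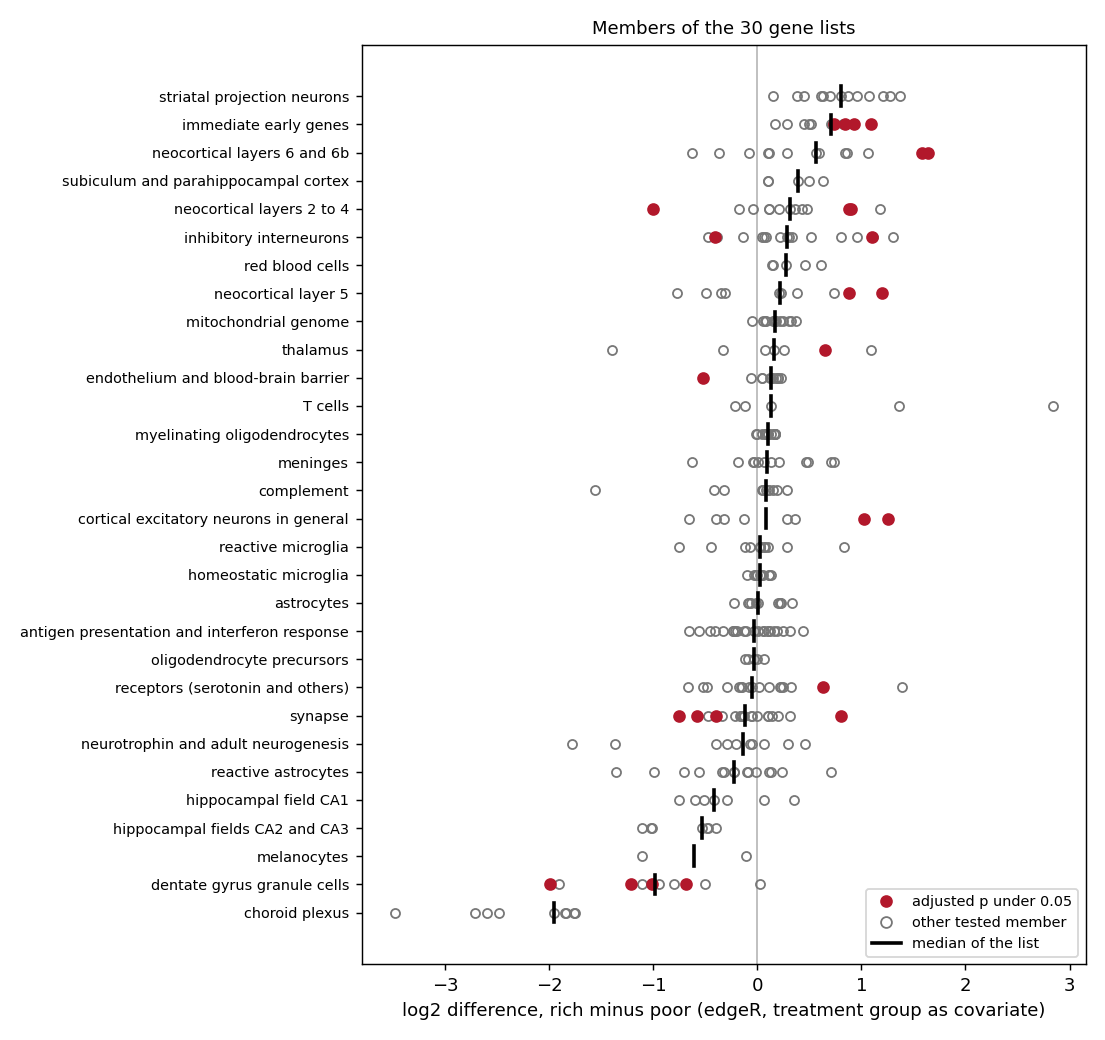
Log2 difference, rich minus poor, of each tested member of the 30 gene lists (circles, filled where the adjusted p was under 0.05), with the median of each list as a black bar and lists in order of median. Choroid plexus and dentate genes lie lowest, and striatal and immediate early genes highest.

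The lower genes outside the dentate list included Slc29a4, the plasma membrane monoamine transporter (chr5:142692512-142722490). It had 15.4, 20.3 and 31.8 CPM in rich and 34.98, 54.4 and 92.8 CPM in poor libraries, and the classes did not overlap. Its log2 difference was -1.35 (SE 0.17, edgeR adjusted p = 0.0133), and -1.28 without the 2 libraries rich in short transcripts. Sema5a, an axon guidance semaphorin, differed by -1.29 (SE 0.18) with medians of 48.2 and 118 CPM, and Shisa6, an auxiliary subunit of AMPA receptors, by -1.23 (SE 0.28) with medians of 63.7 and 174 CPM. Slc29a4 and Sema5a lost their call in 9 of 37 alternatives and Shisa6 in 25. Best3, Vwa3b, Dpf3, Trp73, Htra4, Cd163l1 and Gm33699 were also among the 15 greatest decreases, with log2 differences from -1.60 to -1.16. Vwa3b, Dpf3 and Gm33699 lost their call in 9 of 37 alternatives, Htra4 in 12, Trp73 in 15, Best3 in 18 and Cd163l1 in 24. Of the 15 decreases, control replicate 2 was the highest of all libraries for 9 and melanoma plus ICI replicate 3 the lowest for 8. The remaining 3 of the 15, Il27ra, Il16 and Ankdd1a, overlap other gene models, of which 1 of 1, 2 of 3 and 1 of 1 lie on the other strand. Counts of those partners were 390%, 53.03% and 1196% of their own, and since strand use is not given in the sources used here, the reads cannot be assigned to one or the other. Gm33699 likewise overlaps a gene on the other strand (15.01%). Gm28928 overlaps 2 gene models on its own strand (92.5%), and its level is uncertain for that reason.

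Synaptic genes moved in both directions. Gria1, an AMPA receptor subunit abundant in the hippocampus (chr11:57011387-57330244), had 339, 700 and 1096 CPM in rich and 900.0, 1216 and 1417 CPM in poor libraries, and both rich lay below both poor libraries in 4 of 4 groups. Its log2 difference was -0.75 (SE 0.14, edgeR adjusted p = 0.0156). The NMDA receptor subunits Grin2a and Grin2b differed by -0.58 and -0.40 (edgeR adjusted p = 0.0463 and 0.0407), and lost their call in 29 and 27 of 37 alternatives. Stx1a, a syntaxin of synaptic vesicle fusion, was higher, with medians of 186 CPM in rich and 112.7 CPM in poor libraries and a log2 difference of 0.81 (SE 0.14, edgeR adjusted p = 0.0156). Of 19 tested synaptic genes these 4 passed, against 3.1% of all genes. Dlg4, the scaffold PSD-95, had a log2 difference of -0.16 (SE 0.06) and Bdnf, a neurotrophin, one of -0.21 (SE 0.22), and neither passed (edgeR adjusted p = 0.198 and 0.626).

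Single members of 3 further lists passed. Crhr1, the receptor of corticotropin-releasing hormone, was higher by 0.63, Rgs16, a regulator of G protein signalling from the thalamus list, was higher by 0.65, and Ocln, the tight junction protein occludin, was lower with a log2 difference of -0.52. They lost their call in 20, 25 and 26 of 37 alternatives, in that order. Each was the sole one of the 17, 7 and 11 tested members of its list that passed, against 3.1% of all genes, and nothing is read from 1 call in a list of that size.

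Immediate early genes, which neurons and other cells transcribe within minutes of stimulation, were higher in rich libraries in 4 of 12 tested cases and lower in 0, against 1.68% and 1.43% of all genes. Fos had 13.3, 36.2 and 79.1 CPM in rich and 8.05, 15.3 and 27.4 CPM in poor libraries, a log2 difference of 1.10 (SE 0.27, edgeR adjusted p = 0.0438). The other 3 were Dusp1, a phosphatase of MAP kinases (0.93, SE 0.19), Fosb, a partner of Jun proteins (0.74, SE 0.19), and Ier2 (0.84, SE 0.21). Dusp1 lost its call in 15 of 37 alternatives, Fos and Fosb in 26 and Ier2 in 28. The difference of Fos was unequal across treatment groups, with log2 differences of 2.52 for melanoma plus ICI, 0.94 for melanoma, 0.83 for ICI and 0.10 for control mice, but did not pass the interaction test (edgeR adjusted p = 0.670). Without melanoma plus ICI replicate 3 only 1 of the 12 genes passed, against 502 of all 18425 genes. Without the 2 libraries rich in short transcripts 3 passed, against 569 of all genes. Without the 3 libraries of highest score no gene of the whole table passed, so 0 of 12 there says nothing about this list.

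Transcription of many of these genes is known to respond to CREB, a factor that binds the cAMP response element. The stretch from 250 to 51 bases before the RefSeq start was searched for TGACG and its reverse complement CGTCA, which overlap in the full palindrome, and is shown here for the immediate early genes that passed. Capitals mark the matches in each sequence, written 5′ to 3′ on the gene's strand from RefSeq (GRCm38.p6), and 3 of the 4 genes had an entry; Ier2 had none. The positions are chr12:85473640-85473839 on the plus strand for Fos, chr17:26508523-26508722 on the minus strand for Dusp1 and chr7:19310096-19310295 on the minus strand for Fosb.
Fos: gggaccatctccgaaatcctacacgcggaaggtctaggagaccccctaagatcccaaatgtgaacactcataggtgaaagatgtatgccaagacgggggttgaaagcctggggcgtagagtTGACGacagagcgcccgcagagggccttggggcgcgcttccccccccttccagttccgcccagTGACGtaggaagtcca
Dusp1: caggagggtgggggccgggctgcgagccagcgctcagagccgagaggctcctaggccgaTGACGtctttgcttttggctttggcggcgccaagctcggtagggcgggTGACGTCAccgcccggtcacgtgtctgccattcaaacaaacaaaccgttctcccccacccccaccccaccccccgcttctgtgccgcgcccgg
Fosb: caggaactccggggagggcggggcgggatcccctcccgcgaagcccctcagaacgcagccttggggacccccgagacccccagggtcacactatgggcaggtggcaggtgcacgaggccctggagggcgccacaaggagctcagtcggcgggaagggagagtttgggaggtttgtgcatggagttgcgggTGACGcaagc

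Dusp1 had 3 matches, 2 of which overlap in the palindrome TGACGTCA, Fos had 2 and Fosb had 1. Of all 32851 RefSeq windows of 200 bases, 12.7% held at least 1 match. The motif is a description of these windows and was not related to the levels by any test.

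The difference between classes varied with treatment for 1 gene (0.00543%), whereas 5.78% of genes had an unadjusted p under 0.05 in that test. This gene was Arc, an immediate early gene whose protein acts at synapses (chr15:74669083-74672570; edgeR adjusted p = 0.0282). In control mice Arc had 116 and 106 CPM in the rich libraries, replicates 1 and 4, and 206 and 155 CPM in the poor ones, replicates 2 and 3. In ICI mice the rich libraries had 96.2 and 96.4 CPM, below both poor libraries, whose log2 CPM was 6.82 and 6.93. The order was the other way round in tumour-bearing mice: 375 and 231 against 197 and 198 CPM in melanoma, and 396 and 373 against 49.4 and 72.2 CPM in melanoma plus ICI mice. The middle control library had 402 CPM, above every rich library. Most omissions ended this call: it held in 3 of 16 fits without 1 library, those without melanoma replicate 2, melanoma replicate 3 or melanoma plus ICI replicate 1, and the adjusted p of the Arc interaction reached 0.303 without melanoma plus ICI replicate 2. It was 0.415 with limma voom and 0.102 without the 2 libraries rich in short transcripts.

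**Figure D5:**
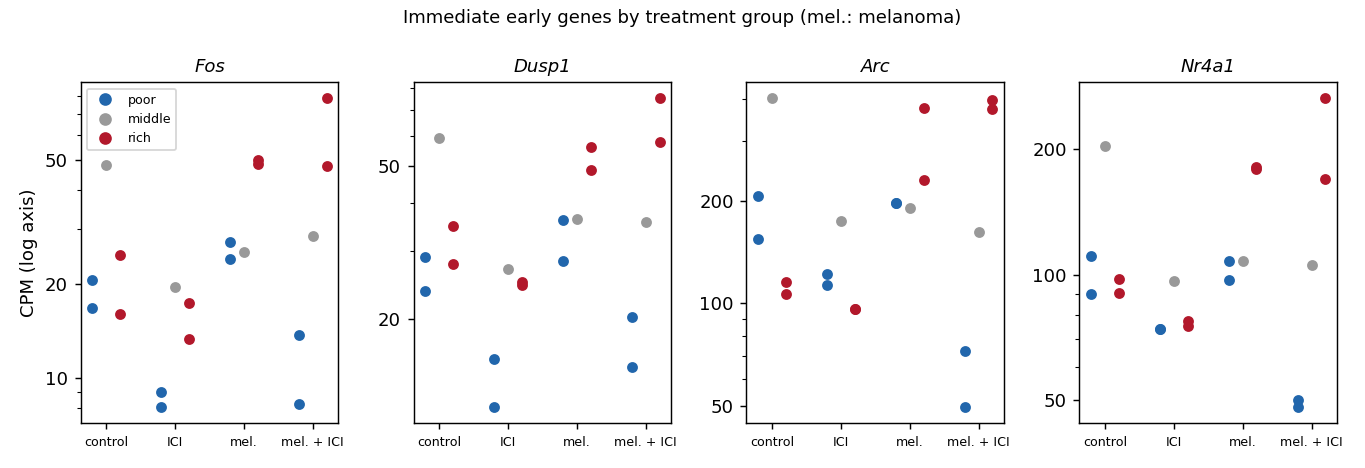
CPM on log axes of Fos, Dusp1, Arc and Nr4a1 in each of the 20 libraries, by treatment group (mel., melanoma); colours mark the class. In melanoma plus ICI mice both rich libraries lie above both poor ones for all 4 genes, and in control mice Arc lies the other way round.

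Immune genes gave no calls between the classes in edgeR's test. Of 78 tested genes of homeostatic and reactive microglia, reactive astrocytes, complement, antigen presentation and the interferon response, and T cells, 0 passed edgeR's test, and 11 had an unadjusted p under 0.05, 3 higher and 8 lower, against 3.1% and 19.6% of all genes, so these counts show nothing particular to immune genes. DESeq2 called 1 gene in each of the reactive microglia, reactive astrocyte, complement and T cell lists, and 1391 of all 18425 genes. Limma voom called 1, 3, 0 and 1, and 1565 of all genes. The T cell gene was higher and the others lower in rich libraries. Of the 13 T cell genes listed only 5 were tested, and Cd3e, Cd3d, Cd3g, Cd8a, Cd8b1, Trbc1, Cd2 and Cd5 were not. With the score as a continuous covariate edgeR called 3060 genes. Among them 2 reactive astrocyte and 2 complement genes were lower and 1 T cell gene higher. Without the 2 libraries rich in short transcripts edgeR called 1 reactive astrocyte gene, Serpina3n, an acute phase protease inhibitor, which was lower. Gfap, the intermediate filament of astrocytes, had 190, 298 and 368 CPM in rich and 280, 363 and 435 CPM in poor libraries, with a log2 difference of -0.34 (SE 0.12, edgeR adjusted p = 0.125; limma voom adjusted p = 0.0429). Gfap also passed in edgeR without melanoma replicate 2 (adjusted p = 0.0491) and with the score as a continuous covariate (0.0189). Trbc2, a constant segment of the T cell receptor, had 0.0858, 1.86 and 10.45 CPM in rich and 0.0911, 0.198 and 2.69 CPM in poor libraries, a log2 difference of 2.84 (SE 0.87, edgeR adjusted p = 0.0920). Trbc2 passed with DESeq2 (adjusted p = 0.00729), with limma voom (0.0456), with the score as a continuous covariate over 20 libraries (1.4e-05), and in edgeR without the melanoma group (0.0190), melanoma replicate 1 (0.00854) or melanoma replicate 2 (0.0444). Its highest values were 10.45 and 8.91 CPM in melanoma plus ICI replicates 3 and 1 and 7.38 CPM in control replicate 4, the 3 libraries of highest score. Cd4 and Lcn2, an acute phase protein, had log2 differences of 1.36 (SE 0.81) and 0.13 (SE 0.96) and did not pass (edgeR adjusted p = 0.368 and 0.954). Cd4 reached 16.3 CPM in melanoma replicate 3, 8.86 in replicate 5, 8.17 in melanoma plus ICI replicate 3 and 6.64 in melanoma replicate 1. These libraries had the highest striatal scores, and Cd4 had at most 0.908 CPM elsewhere.

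The called genes differed in length. The median gene model was 3494 bases for higher genes, 6070 bases for lower genes and 3618 bases for all tested genes. Without the 2 libraries rich in short transcripts these medians were 4545 bases for 290 higher and 4560 bases for 279 lower genes. Removing each library's trend with length left 361 higher genes with a median of 4502 bases and 286 lower genes with a median of 5410.5 bases. The medians were 3433.5 and 5505 bases with DESeq2, and 3949 and 5045 bases with limma voom.

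With the score of all 20 libraries as a covariate, no gene differed between the 4 treatment groups by edgeR's test (0%), and 990 (5.37%) had an unadjusted p under 0.05. Without the score as a covariate the count was also 0, with 880 at an unadjusted p under 0.05. DESeq2 called 72 genes and limma voom 22 with the score in the fit, and omitting melanoma plus ICI replicate 3 gave 26 by edgeR. Mfsd2a, a lipid transporter of the blood-brain barrier, had the smallest p (edgeR adjusted p = 0.185), and the Mfsd2a group difference had an adjusted p of 0.0020 without that replicate. The 4 middle libraries lay between the class means of their group in 4 of 4 groups for 11 of the 59 genes that met the naming rule.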

How the data were processed

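Per the labels and file headers, the authors deposited 1 table of raw counts per gene for each of 20 libraries, with gene coordinates and length, for 49671 genes; 0 lines named no gene. The submitters' processing notes name STAR 2.5.2b and DESeq2 1.16.1 without a role. Genome build, counter and strand use are not given in the sources used here. Of the identifiers, 49412 are in GENCODE M21 (GRCm38) and 45214 have the same start and end there.

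Counts were normalized by TMM over 20 libraries and filtered with filterByExpr (minimum count 10, minimum total 15), leaving 18427 genes. The 16 classed libraries were fitted with edgeR 4.0.16 (R 4.3.3), robust quasi-likelihood, group plus class (11 residual degrees of freedom), and Tbr1 and Rorb were then left out. CPM of genes is per 1000000 of TMM-scaled counts; list scores are means of log2 CPM with a prior count of 2. Interactions of class and group, and a group test on 20 libraries with the score, were fitted likewise. DESeq2 1.42.0 and limma 3.58.1 voom with quality weights were alternatives, as were other scaling, filters, rankings, covariates and omissions. Scripts were tested on simulated data.

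Within-group library pairs differed beyond counting noise (chi-square per gene 10.5 to 120), so none was merged. The p-values measure the spread between single mice, and since the classes were cut from 2 genes of the same libraries, they describe which genes vary together with them. Named were the 15 greatest increases and decreases past the threshold with a mean of at least 1 CPM, up to 4 called members per list, and Trbc2, Gfap, Dlg4, Bdnf, Lcn2 and Cd4; other list members were added after their values were seen. The 30 lists (345 genes) and the members were chosen with earlier results of these data known. Some genes that met this rule, and 1 alternative ranking, are not reported here.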

Additional observations from a re-analysis of the deposited data

Results flagged for a closer look

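Of 182 sets of values checked (a named gene or list score within 1 class or treatment group), 8 held a library that stood apart from the rest of its set. Chance flags about 1 in 20 such sets.

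On the log2 CPM scale, Trbc2 was 1.47 in melanoma replicate 1 against a median of -1.82 in poor libraries. Crhr1 was 3.04 in control replicate 2, below the poor median of 3.68. Capn11 was 1.96 in ICI replicate 3 against a poor median of -0.82. Adam33 was 1.47 in melanoma replicate 2, below the rich median of 2.85. Among list scores (mean log2 CPM), the thalamus score was 2.30 in ICI replicate 1 against a rich median of 2.94, and its red blood cell score was -1.61 against 1.25. The striatal score was 5.37 in melanoma replicate 1 against a poor median of 3.31, and the mitochondrial score was 7.14 in melanoma plus ICI replicate 2 against a poor median of 6.88.

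Arc differed between treatment groups in its contrast of rich and poor libraries (interaction test of edgeR, adjusted p = 0.0282, 1 gene of 18425).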

How the results depend on the processing

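The count of 572 genes (309 higher, 263 lower) stayed within 1.5 times with RLE size factors, no filter, the myelin covariate, the length trend removed and both short-transcript libraries left out. DESeq2 called 1391 (710 higher, 681 lower) and limma voom 1565 (798 and 767). The score as a continuous covariate gave 3060 (1676 and 1384), and all 20 libraries with a middle class gave 1003 (539 and 464). Ranking by Tbr1 alone gave 20 (20 higher, 0 lower) and ranking by Rorb alone 0 (3390 at an unadjusted p under 0.05). The striatum covariate gave 168 (80 and 88), the choroid plexus covariate 10 (0 higher, 10 lower), the dentate covariate 0, and no treatment group covariate 373 (120 lower). Omitting the melanoma group left 445 (169 lower), and omitting the control, ICI or melanoma plus ICI group, or the 3 libraries of highest score, left 0; these omissions and the length correction were chosen after seeing the data. The fits with omissions hold fewer libraries; the causes of the other changes were not tested. Leaving out 1 library at a time gave 130 to 803 genes (63 to 487 higher, 67 to 342 lower).

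A replicate block gave 0 genes (0 higher, 0 lower, 2267 at an unadjusted p under 0.05) and 0 in the interaction test. Whether the numbers pair the mice cannot be told from these values. Of 30 same-number pairs 10 correlated above 0.1 (-0.35 to 0.53), and 6 of 20 libraries were closest to their own number.

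The interaction count of 1 was 116 with DESeq2, 0 with limma voom, 1296 without a filter, 5 without both short-transcript libraries and 0 to 3 with 1 library left out. The group test count of 0 was 72 with DESeq2, 22 with limma voom and 0 to 26 with 1 library left out; its smallest adjusted p, that of the Mfsd2a group difference, ranged from 0.0020 to 0.565 over those omissions.

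Of the named genes that passed, 3 to 35 lost their call with 1 library left out (35 without ICI replicate 5, 33 without melanoma plus ICI replicate 4), 23 with no filter, 17 without both short-transcript libraries and 53 in each fit that called 0 genes. Of these genes, Trpc6 alone changed sign in any alternative, to 0.0429 with the dentate covariate. Among genes that did not pass, Cd4 became -1.21 with the dentate and -0.52 with the striatum covariate. Bdnf became 0.70 with the dentate covariate and 0.0052 without the ICI group. Lcn2 became -1.47 with limma voom, -0.0395 without both short-transcript libraries, -0.32 with the replicate block, -0.0298 without the ICI group, -1.76 without the melanoma plus ICI group and -1.84 without the 3 libraries of highest score, and ranged from -0.68 to 0.89 with 1 library left out. With 21990624 counts in the shallowest library, a gene at 1 CPM rests on few reads.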
